A study of Oryctolagus cuniculus with 6 samples.

Results

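The cold-inducible RNA-binding proteins and the cold-shock domain proteins were examined through 5 genes, CIRBP, RBM3, YBX1, YBX3 and CARHSP1, which were taken by symbol from the deposited table of 22190 rabbit genes. All 5 were present with NCBI gene identifiers 127489208 (CIRBP), 100343341 (RBM3), 100009583 (YBX1), 100344193 (YBX3) and 100358515 (CARHSP1), and all 5 were among the 15029 genes that passed a filter on low counts. RNA-seq had been performed on primary rabbit limbal stem cells (LSCs), the epithelial progenitors of the corneal rim, cultured from tissue explants. Each group, fresh and preconditioned, had 3 libraries. Corneas of the preconditioned group were kept in liquid nitrogen for 7 days in a cryomedium of DMEM/F12, serum and DMSO with 10 ng/mL IL-1β, a signalling protein of inflammation, while the fresh group was neither frozen nor given IL-1β. Limbal explants were then cultured in keratinocyte medium under standard conditions, so that RNA was taken from cells after warm culture and not from cold tissue. The interval from thawing to RNA extraction, and the strain, age and number of the animals, are not given in the sources used here. Freezing, thawing and IL-1β were applied together and cannot be told apart.

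CIRBP and RBM3 are small proteins with 1 RNA recognition motif and a glycine-rich tail, and mild cooling of mammalian cells is known to raise both. They bind mRNA, act on its stability and translation, and CIRBP also moves to stress granules. YBX1 and YBX3 carry a cold-shock domain, a nucleic acid binding fold shared with bacterial cold-shock proteins, and package mRNA in the cytoplasm. CARHSP1 is a small phosphoprotein built around the same domain that binds the 3' ends of mRNAs such as that of TNF. In mammals the cold-shock domain proteins are known for translation control and growth more than for induction by cold.

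The 6 libraries held 31952352 to 34327534 counts on genes. CPM (counts scaled to a common library size with TMM factors) were used for levels within a gene. On the first principal component of log2 CPM, which held 50.4% of the variance and was computed without the 5 genes, the fresh libraries lay between −53.1 and −41.1. Preconditioned replicate 1 lay at 8.13, between the fresh libraries and preconditioned replicates 2 and 3 (58.3 and 70.4). KRT5, a basal epithelial keratin, was expressed at 7337 to 11740 CPM in all 6 libraries, and its groups overlapped. TP63, the gene of the limbal progenitor marker p63, had 226 to 246 CPM in fresh libraries and 112 to 183 CPM in preconditioned ones, without overlap (log2 fold change −0.77, adjusted p = 0.059 by edgeR). EPCAM, an epithelial adhesion gene, had 77.5 to 91.8 CPM and 102 to 126 CPM, also without overlap (log2 fold change 0.50, adjusted p = 0.060 by edgeR). PAX6, a transcription factor of the eye, had 174 to 218 CPM and 203 to 459 CPM, and KRT3, CDH1, KRT15 and KRT19 overlapped between the groups as well. By edgeR on all libraries none of these 8 epithelial markers was called. Without preconditioned replicate 1, TP63 (log2 fold change −1.03, adjusted p = 0.0040 by edgeR) and PAX6 (1.07, adjusted p = 0.0060) were called, beside 9.99% of all genes. With DESeq2 their adjusted p was 0.0086 and 0.041 at a fold change below the cutoff, and 18.5% of all genes passed by adjusted p. KRT12 and KRT14 were not analysed here. The 10 stromal markers summed to 544 to 1188 CPM in fresh libraries and 1324 to 2352 CPM in preconditioned ones, with 1 of the 10 (COL1A1, type I collagen) called higher by the cutoffs given below (log2 fold change 2.66, adjusted p = 0.015 by edgeR). The COL1A1 call was lost without fresh replicate 2 (adjusted p = 0.069 by edgeR) and without preconditioned replicate 2 (adjusted p = 0.067). Without COL1A1, the other 9 summed to 487 to 1079 CPM and 820 to 1659 CPM, which overlap, and 4 of the 10 (PDGFRB, THY1, DCN and KERA) had a log2 fold change below 0. The stromal marker VIM overlapped between the groups (log2 fold change 0.43, adjusted p = 0.50 by edgeR). The 7 immune markers summed to 104 to 136 CPM and 126 to 323 CPM, the 6 melanocyte markers to 4.61 to 5.85 CPM and 2.71 to 6.39 CPM, and the 4 endothelial markers to 2.67 to 3.13 CPM and 1.07 to 13.01 CPM, and by edgeR none of these genes was called. With DESeq2, 1 immune and 1 melanocyte gene were called, and without preconditioned replicate 1 it was 1 gene in each of the 3 lists, beside 7.64% and 9.99% of all genes in these fits. All 6 tested immune markers had a log2 fold change above 0, and the lysosomal macrophage gene CD68 made up most of the sum, with 93.4 to 129 CPM in fresh libraries and 121 to 299.6 CPM in preconditioned ones (log2 fold change 1.14, adjusted p = 0.085 by edgeR). The pan-leukocyte gene PTPRC had at most 47 counts in each library, and CD3E, MLANA, TYR and PMEL had at most 3. Other genes of these lists reached more, with up to 357 counts for CD14, 400 for PECAM1, 199 for MITF and 79 for TYRP1. TYRP1 (log2 fold change 2.59), ITGAM (1.65), CD74 (1.30) and PECAM1 (1.27) were above 0, CD14 was at 0.02 and MITF at −0.61.

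None of the 5 genes passed the cutoffs, which were an adjusted p no higher than 0.05 with a log2 fold change of 1 or more in size, and none passed by adjusted p alone. YBX3 came closest, with all 3 preconditioned libraries below all 3 fresh libraries. RBM3 had a lower mean in the preconditioned group, but its preconditioned libraries ranged from the fresh level to less than any fresh library. The means of YBX1, CIRBP and CARHSP1 differed by less than the SD of the preconditioned group. For CIRBP and CARHSP1 they differed by more than the SD of the fresh group (1.26 and 1.08 CPM). The test was edgeR's quasi-likelihood test with Benjamini-Hochberg adjustment over 15029 genes, of which 2.29% passed both cutoffs (163 higher and 181 lower) and 5.08% passed by adjusted p alone. At an unadjusted p under 0.05, 1 of the 5 genes (YBX3) passed, against 30.6% of all genes. With DESeq2, 0 of the 5 passed both cutoffs, and 1 (YBX3) passed by adjusted p alone, against 18.5% of 15724 genes with a value. The CPM ranges of fresh and preconditioned libraries were separate for 1 of the 5 genes, beside a background of 36.7% over the whole table. The median log2 fold change of the 5 genes was −0.03, and that of all tested genes was 0.01. In bulk libraries such as these, a smaller share of cells with a transcript and less transcript per cell cannot be told apart.

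**Figure D1:**
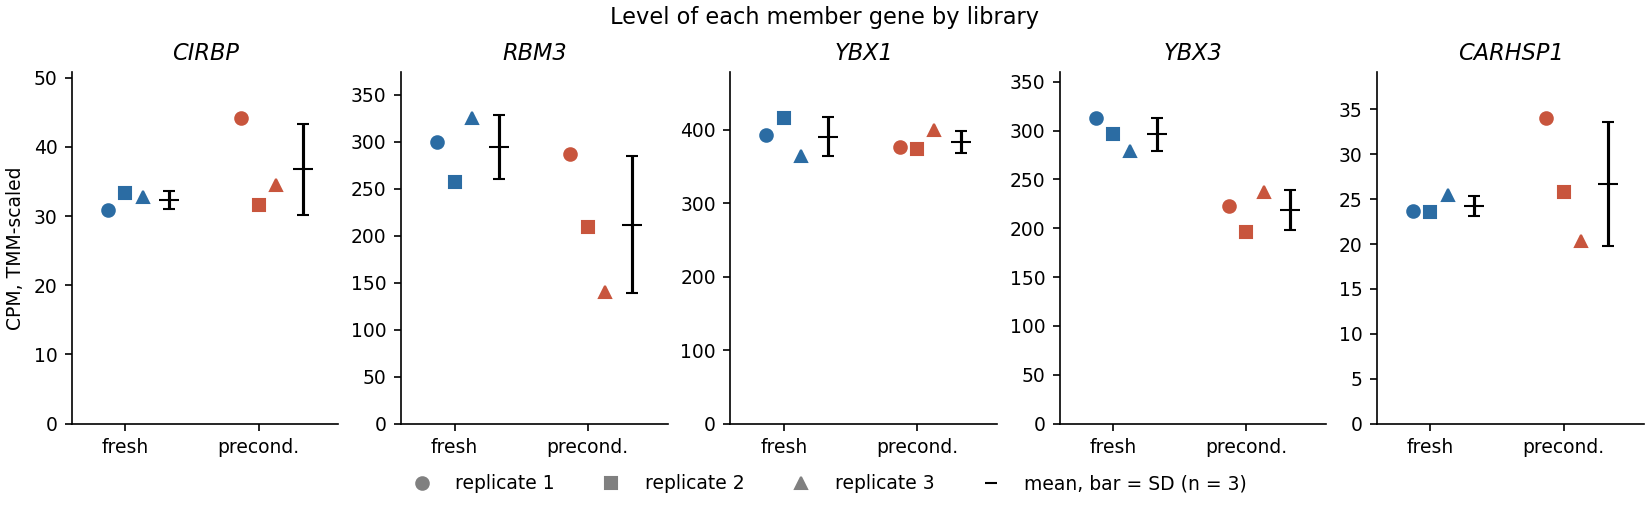
Expression of the 5 genes in CPM (counts scaled to library size by TMM, axis from 0) in each of the 3 fresh (blue) and 3 preconditioned (red) libraries, with replicate numbers as symbols and the mean and SD as black bars. The 3 preconditioned libraries of YBX3, at 196 to 237 CPM, lie below the fresh libraries at 279 to 313 CPM, while the groups overlap for the other genes.

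RBM3, which aids translation in cooled cells, had 299.8 CPM, 258 CPM and 325 CPM in fresh replicates 1, 2 and 3. It had 287 CPM in preconditioned replicate 1, 209 CPM in replicate 2 and 140.0 CPM in replicate 3. Preconditioned replicate 1 therefore lay inside the fresh range, and the other preconditioned libraries lay below it. The means were 294 ± 34.1 CPM and 212 ± 73.4 CPM (SD, n = 3 each). Its log2 fold change was −0.47 (standard error, SE, 0.25, adjusted p = 0.24 by edgeR). Its 95% interval, not adjusted for the number of genes, ran from −1.06 to 0.12, or from 0.479-fold to 1.08-fold of the fresh level. The interval thus included no change, and its upper end was close to the fresh level. Of 14 alternative settings, all gave a value below 0, from −0.76 to −0.25. Of these, 1 passed by adjusted p, the fit without preconditioned replicate 1 (log2 fold change −0.76, adjusted p = 0.036 by edgeR), in which 25.2% of all genes also passed.

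CIRBP, the other cold-inducible gene, had 30.9 CPM, 33.3 CPM and 32.7 CPM in the fresh libraries. In preconditioned replicates 1, 2 and 3 it had 44.2 CPM, 31.6 CPM and 34.5 CPM. Preconditioned replicate 1 was the highest of the 6 libraries, and replicate 2 lay inside the fresh range. For CIRBP the log2 fold change was 0.19 (SE 0.15, adjusted p = 0.43 by edgeR), with a 95% interval from 0.890-fold to 1.45-fold of the fresh level. Without single libraries, the log2 fold change ranged from 0.02 (preconditioned replicate 1 left out) to 0.29 (replicate 2 left out). The libraries were scaled by TMM, and with library size alone, which moved the median log2 fold change of all genes from 0.01 to −0.16, CIRBP was also at 0.02.

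The balance of RBM3 and CIRBP was compared within each library, where the scaling of libraries does not enter. The log2 ratio of RBM3 counts to CIRBP counts was 3.28, 2.95 and 3.31 in fresh replicates 1, 2 and 3. It was 2.70, 2.73 and 2.02 in preconditioned replicates 1, 2 and 3. All 3 preconditioned libraries lay below all 3 fresh libraries, with a gap of 0.22 between the nearest ones. In preconditioned replicate 1, RBM3 was at the fresh level (287 CPM) and CIRBP was the highest of the 6 libraries (44.2 CPM). The share of all gene pairs with separate ratios was not computed, and the CPM ranges of single genes were separate for 36.7%. The means of the ratio were 3.18 ± 0.201 and 2.48 ± 0.401 (SD, n = 3 each), so that it was 0.616 times as large in the preconditioned group. The exact 2-sided permutation test over libraries gave p = 0.1, the smallest that 3 libraries against 3 allow, and the value adjusted over the 2 ratios tested was also 0.1. The difference of −0.70 became −0.47 without preconditioned replicate 3 and −0.82 without replicate 2. With 3 libraries a group, a p under 0.05 cannot be reached by this test.

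YBX3, a cold-shock domain protein also known as a repressor of transcription and a partner of the tight junction protein ZO-1, had 313 CPM, 296 CPM and 279 CPM in fresh replicates 1, 2 and 3. It had 223 CPM, 196 CPM and 237 CPM in preconditioned replicates 1, 2 and 3. The highest preconditioned library stood below the lowest fresh one, and preconditioned replicate 1 did not stand apart from the others of its group. The means were 296 ± 16.8 CPM and 218 ± 20.8 CPM (SD, n = 3 each). For YBX3 the log2 fold change was −0.44 (SE 0.12, adjusted p = 0.064 by edgeR), and the 95% interval ran from 0.611-fold to 0.891-fold of the fresh level. By p value YBX3 ranked 1494 among the 15029 genes, and its absolute log2 fold change exceeded that of 56.9% of them, so that a difference of this size was common between these groups.

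YBX3 passed both cutoffs under none of the settings run, but whether it passed by adjusted p alone depended on the setting. It had an adjusted p of 0.026 with DESeq2 (log2 fold change −0.44). With library size as the only scaling, the adjusted p by edgeR was 0.037, and 8.92% of all genes then passed. With limma on log2(FPKM + 1) and log2(FPKM + 0.1), the adjusted p was 0.042 and 0.041, and 7.55% and 8.02% of genes passed. Without preconditioned replicate 1 it was 0.039 by edgeR, where 25.2% of genes passed. The other 9 of 14 alternatives had an adjusted p above 0.05, and the log2 fold change was below 0 under all 14, from −0.61 to −0.36.

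YBX1, a general mRNA-packaging protein, had 393 CPM, 416 CPM and 364 CPM in the fresh libraries and 377 CPM, 374 CPM and 401 CPM in the preconditioned libraries. The libraries of the groups interleaved. YBX1 had a log2 fold change of −0.03 (SE 0.11, adjusted p = 0.88 by edgeR), and the 95% interval ran from 0.826-fold to 1.17-fold of the fresh level. The value depended on the scaling, with −0.20 for library size alone (adjusted p = 0.25 by edgeR) and −0.19 for limma on log2(FPKM + 1) (adjusted p = 0.21). In FPKM, which carry no TMM scaling, the fresh libraries had 263 to 299 and the preconditioned libraries 231 to 258. The groups were thus separate for YBX1, and the share of genes with separate FPKM ranges was not computed. Genes as a whole also moved down without TMM, with a median of −0.16 for library size alone. With limma at pseudocounts of 1 and 0.1 this median was −0.09 and −0.15. Among the preconditioned libraries the SD of the log2 CPM of YBX1 was 0.055, above that of 5.68% of the 9026 genes with a mean of at least 10 CPM.

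The table holds 3 further rows described as Y-box-binding protein 1 or similar to it, LOC100344478, LOC100356968 and LOC100357477, whose reads could be shared with YBX1. Together they held 111 to 153 counts per library, or 0.750% to 1.14% of the YBX1 count. With their counts added to YBX1, its log2 fold change stayed at −0.03. Reads that match several places can be dropped by the counting program, and its setting for them is not given in the sources used here.

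The log2 ratio of YBX3 counts to YBX1 counts was −0.33, −0.49 and −0.38 in fresh replicates 1, 2 and 3, and −0.76, −0.93 and −0.76 in preconditioned replicates 1, 2 and 3. The groups did not overlap, with a gap of 0.27, while the CPM ranges of single genes were separate for 36.7% of all tested genes. The means were −0.40 ± 0.0819 and −0.82 ± 0.0997 (SD, n = 3 each), a ratio 0.750 times as large in the preconditioned group (exact 2-sided permutation test, p = 0.1, the smallest possible, adjusted p = 0.1). Without any 1 library, the difference stayed between −0.46 and −0.36. This difference does not depend on how the libraries are scaled, in contrast to the adjusted p of YBX3 itself.

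**Figure D2:**
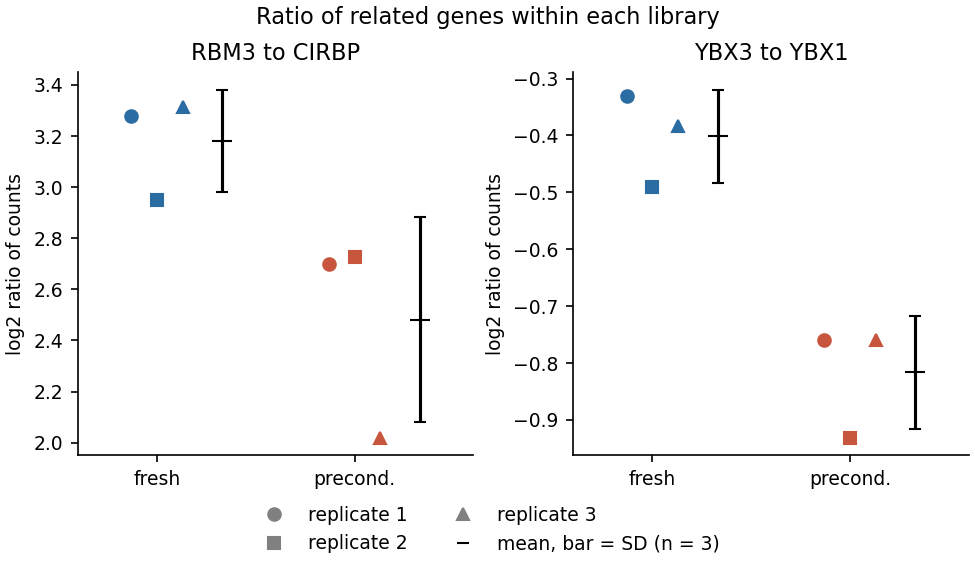
Log2 ratio of the counts of RBM3 to CIRBP (left) and of YBX3 to YBX1 (right) within each library, with fresh libraries in blue, preconditioned libraries in red, and the mean and SD in black; the axes do not start at 0. Each of the 3 preconditioned libraries lies below each of the 3 fresh libraries in both panels, by 0.22 or more on the left and 0.27 or more on the right.

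CARHSP1 had 23.7 CPM, 23.6 CPM and 25.5 CPM in the fresh libraries. It had 34.02 CPM, 25.7 CPM and 20.3 CPM in preconditioned replicates 1, 2 and 3. The preconditioned libraries lay on either side of the fresh range, with replicate 1 highest. CARHSP1 had a log2 fold change of 0.14 (SE 0.20, adjusted p = 0.66 by edgeR), and the 95% interval ran from 0.799-fold to 1.52-fold. The sign was not stable, since it was negative with library size alone, with both limma fits and without preconditioned replicate 1.

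The spread among preconditioned libraries was uneven across the 5 genes. As a share of the mean, the SD of RBM3 was 11.6% over fresh libraries and 34.6% over preconditioned ones. That of CARHSP1 was 4.44% and 25.9%, and that of CIRBP 3.91% and 17.9%. YBX3 had 5.69% and 9.50%, and YBX1 had 6.68% and 3.82%. Over the 9026 genes with a mean of at least 10 CPM, the SD of log2 CPM was larger in the preconditioned group for 68.7%, with medians of 0.14 and 0.21. The SD of RBM3 in the preconditioned group, 0.52, exceeded that of 88.6% of these genes. Over the 6 libraries, Pearson's r of log2 CPM between the 10 pairs of these genes ranged from −0.53 for YBX1 and CARHSP1 to 0.72 for CIRBP and CARHSP1. It was 0.57 for RBM3 and CARHSP1, 0.48 for RBM3 and YBX3, 0.42 for YBX1 and YBX3, 0.06 for RBM3 and CIRBP, and between −0.36 and −0.13 for the other 4 pairs, as a description of libraries that share their scaling and their groups.

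**Figure D3:**
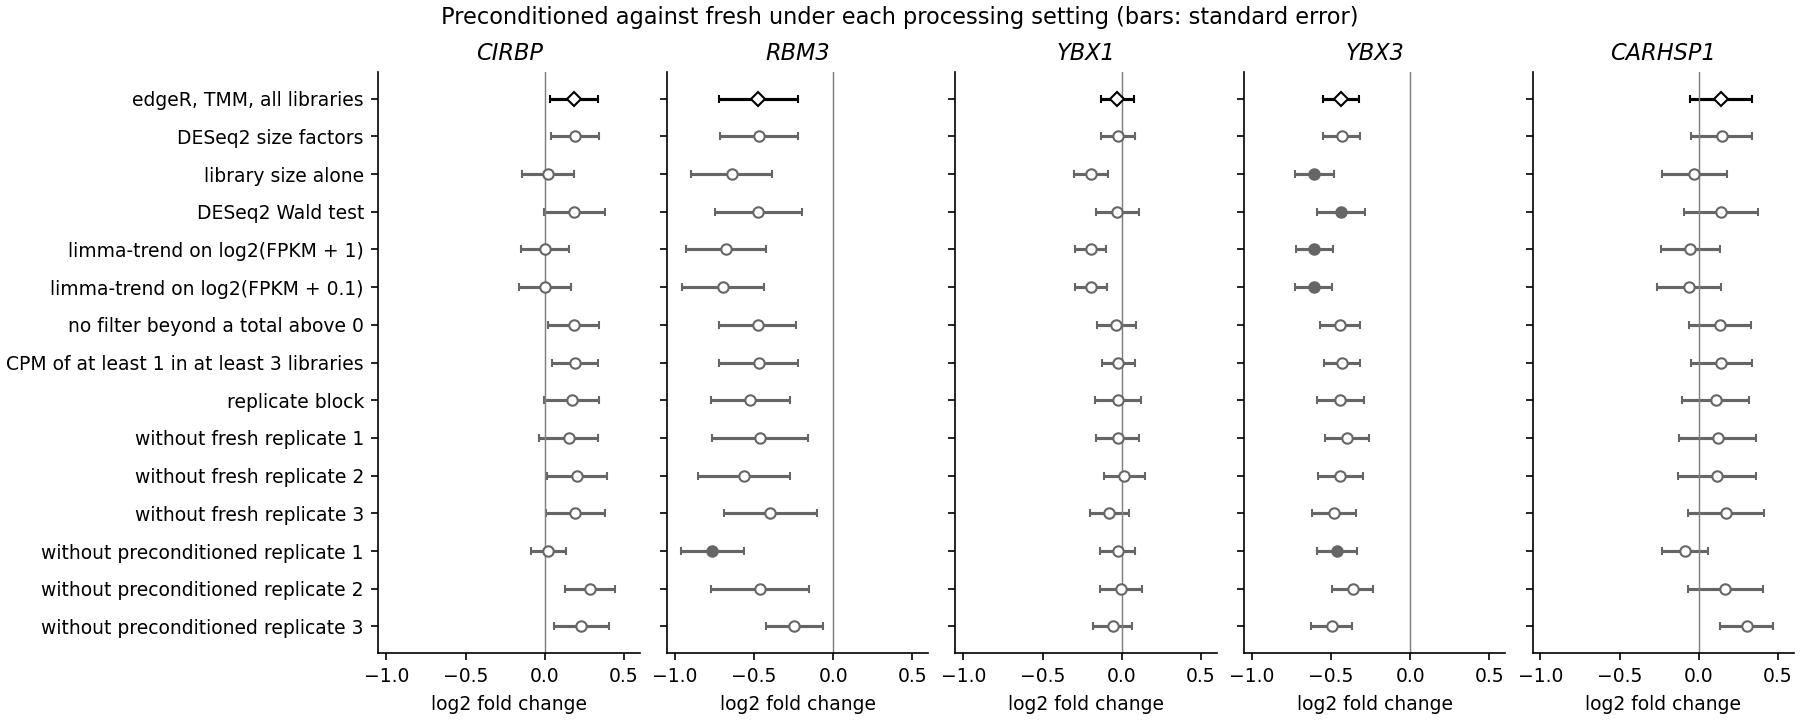
Log2 fold change of each gene, preconditioned against fresh, with its standard error, for the reported fit (top row) and 14 alternative settings; filled symbols have an adjusted p of at most 0.05. RBM3 and YBX3 stay below 0 in every row, YBX3 is filled in 5 alternatives and RBM3 in 1, and CARHSP1 lies on either side of 0.

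Levels were compared between genes per length, in the deposited FPKM. YBX1 had 281 ± 18.1 FPKM in fresh libraries and 245 ± 13.4 FPKM in preconditioned ones (SD, n = 3 each), above 98.4% to 98.9% of all 22190 genes in each library. YBX3 followed with 164 ± 8.53 and 108 ± 12.7 FPKM, and RBM3 with 47.2 ± 5.57 and 30.3 ± 10.9 FPKM (SD, n = 3 each). CIRBP had 14.1 ± 0.603 and 14.3 ± 2.92 FPKM and CARHSP1 10.5 ± 0.512 and 10.3 ± 2.82 FPKM (SD, n = 3 each). This order held within each of the 6 libraries. Neighbours in the order did not overlap in their ranges over a group, except CIRBP and CARHSP1 in the preconditioned group. RBM3 stood at 2.84 to 3.65 times the FPKM of CIRBP in fresh libraries and at 1.49 to 2.43 times in preconditioned ones. The counts and FPKM values imply that the authors used a length of 6608 bases for RBM3, against 1476 for YBX1, 1908 for YBX3, 2424 for CIRBP and 2449 for CARHSP1. How these lengths were defined is not given in the sources used here, and the rank of RBM3 rests on it, since RBM3 and YBX3 had about equal CPM in the fresh group (294 and 296).

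The genes around these 5 were examined in 5 lists with 56 genes in all, of which 47 were tested. Of the 47 genes, 1 passed both cutoffs and 2 passed by adjusted p alone, beside 2.29% and 5.08% of all tested genes. The median log2 fold change of the 47 was −0.07, with 25 below 0 and 22 above. Fresh and preconditioned libraries were separate for 22 of them (46.8%, beside 36.7% over the whole table).

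Of the other cold-shock domain genes described here, none passed the filter on low counts. YBX2, the germ cell member of the Y-box family, had at most 9 counts in each library, and CSDC2 and LIN28A had at most 5. LIN28B was counted in the list but not analysed here.

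Genes that sense cold or help to induce RBM3 and CIRBP came next, with 7 of 10 tested. By edgeR 0 of the 7 were called, beside 2.29% of all tested genes, and 2 had an unadjusted p under 0.05, beside 30.6%. TRPM8, the menthol and cold receptor, had at most 3 counts in each library, and TRPA1 had at most 20. NTRK2, the gene of the receptor TrkB, was also below the filter, with at most 42 counts in each library. TRPV4, a warm-sensitive channel, had 1.22 CPM, 1.24 CPM and 1.29 CPM in the fresh libraries and 1.10 CPM, 3.13 CPM and 2.63 CPM in the preconditioned libraries, and the groups overlapped (log2 fold change 0.87, adjusted p = 0.22 by edgeR). Without preconditioned replicate 1, TRPV4 passed both cutoffs (log2 fold change 1.20, adjusted p = 0.039 by edgeR), as did 9.99% of all genes, and without replicate 2 its log2 fold change was 0.58. PLCG1, a phospholipase of the TrkB signal that induces RBM3, had 83.8 CPM, 77.7 CPM and 75.3 CPM in fresh replicates 1, 2 and 3 and 56.7 CPM, 49.4 CPM and 61.4 CPM in preconditioned replicates 1, 2 and 3. The groups did not overlap (log2 fold change −0.50, SE 0.12, adjusted p = 0.054 by edgeR). Without preconditioned replicate 1, PLCG1 was at −0.52 (adjusted p = 0.029 by edgeR, in a fit where 25.2% of all genes passed). Its adjusted p was 0.016 with DESeq2 and 0.034 with library size alone by edgeR, where 18.5% and 8.92% of genes passed. With limma at pseudocounts of 1 and 0.1 it was 0.043 and 0.042, where 7.55% and 8.02% passed. The other alternatives gave PLCG1 an adjusted p above 0.05. HNRNPH1, a splicing factor that acts on a poison exon of RBM3, had 296 to 358 CPM in fresh libraries and 257 to 274 CPM in preconditioned ones (log2 fold change −0.30, adjusted p = 0.13 by edgeR). For HNRNPH1 the adjusted p was 0.047 with library size alone by edgeR and 0.12 with DESeq2. With limma it was 0.048 and 0.047 at pseudocounts of 1 and 0.1. The transcription factors SP1 and CREB1 had log2 fold changes of 0.01 and −0.12.

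Among 12 kinases, phosphatases, a methyltransferase and transport factors of such proteins, 1 was called by edgeR, beside 2.29% of all tested genes, and it was lower in the preconditioned group. SGK1, a kinase induced by serum and glucocorticoids, had 67.7 CPM, 52.1 CPM and 63.0 CPM in fresh replicates 1, 2 and 3. It had 22.5 CPM, 18.8 CPM and 12.5 CPM in preconditioned replicates 1, 2 and 3, each far below the fresh libraries. SGK1 had a log2 fold change of −1.76 (SE 0.23, adjusted p = 0.023 by edgeR). Leaving out any fresh library, or preconditioned replicate 2, raised the adjusted p of SGK1 to between 0.068 and 0.11. PRMT1, an arginine methyltransferase that acts on CIRBP, had 242 to 249 CPM in fresh libraries and 156 to 236 CPM in preconditioned ones (log2 fold change −0.33, adjusted p = 0.21 by edgeR). For PRMT1 this became −0.18 without preconditioned replicate 3 and −0.49 without replicate 1 (adjusted p = 0.036 by edgeR, in a fit where 25.2% of all genes passed). FBXO33, a ubiquitin ligase subunit for YBX1, had a log2 fold change of −0.33 (−0.17 without fresh replicate 2), and TNPO1, an import receptor of RNA-binding proteins, one of 0.18, and neither passed the test.

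Transcripts known to be bound by these proteins were called in 0 of 11 tested genes by edgeR, beside 2.29% of all tested genes, and 2 had an unadjusted p under 0.05, beside 30.6%. SNAI1, a transcription factor of epithelial-mesenchymal transition whose mRNA YBX1 binds, had 0.493 CPM, 1.997 CPM and 1.149 CPM in the fresh libraries and 6.82 CPM, 6.75 CPM and 3.66 CPM in the preconditioned libraries. The groups did not overlap, and the log2 fold change was 2.24 (SE 0.53, adjusted p = 0.054 by edgeR). SNAI1 passed both cutoffs under 5 alternatives, namely DESeq2, both limma fits, no filter on low counts and leaving out preconditioned replicate 1, with adjusted p values from 0.00039 to 0.048. With DESeq2, 7.64% of all genes passed both cutoffs, and 9.99% did without that library. With limma, 283 and 590 of 15029 genes did at pseudocounts of 1 and 0.1, and with no filter 411 of 22190. HIF1A, the hypoxia factor, had 1470 to 1987 CPM in fresh libraries and 2176 to 2882 CPM in preconditioned ones (log2 fold change 0.45, adjusted p = 0.13 by edgeR). PTGS2, the gene of COX-2, overlapped between groups (log2 fold change 0.70), as did TXN, thioredoxin (0.23). Both values rested on single libraries. PTGS2 ranged from 0.18 without preconditioned replicate 2 to 1.12 without fresh replicate 3, and TXN from 0.07 without preconditioned replicate 3 to 0.40 without replicate 1. TNF was below the filter, with at most 20 counts in each library.

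Of 17 tested granule and mRNP partners, 0 passed both cutoffs by edgeR (9 at an unadjusted p under 0.05), and 10 had a negative log2 fold change. Without overlap of the groups, 9 were lower, beside 18.8% of all tested genes, and 1 (STRAP, log2 fold change 0.32) was higher. The 9 at an unadjusted p under 0.05 stand beside 30.6% of all tested genes. UBAP2L, a stress granule nucleator, had 149 CPM, 181 CPM and 171 CPM in fresh replicates 1, 2 and 3 and 121 CPM, 104 CPM and 91.4 CPM in preconditioned replicates 1, 2 and 3. Its log2 fold change was −0.66 (SE 0.14, adjusted p = 0.046 by edgeR), which met the limit on p but not that on fold change. Leaving out any library other than preconditioned replicate 1 raised this adjusted p to between 0.11 and 0.16. IGF2BP3, an mRNA-binding protein, had 7.55 to 18.5 CPM in fresh libraries and 5.51 to 7.47 CPM in preconditioned ones (log2 fold change −1.002, adjusted p = 0.10 by edgeR). Without fresh replicate 2 it was −0.65. With DESeq2, IGF2BP3 passed both cutoffs (adjusted p = 0.030), as did 7.64% of all genes with a value. CAPRIN1 and PABPC1, the genes of the list with the highest CPM, had log2 fold changes of 0.12 and 0.18 (0.04 for PABPC1 without preconditioned replicate 3) and overlapped between groups, and CAPRIN1 turned to −0.05 with library size alone.

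**Figure D4:**
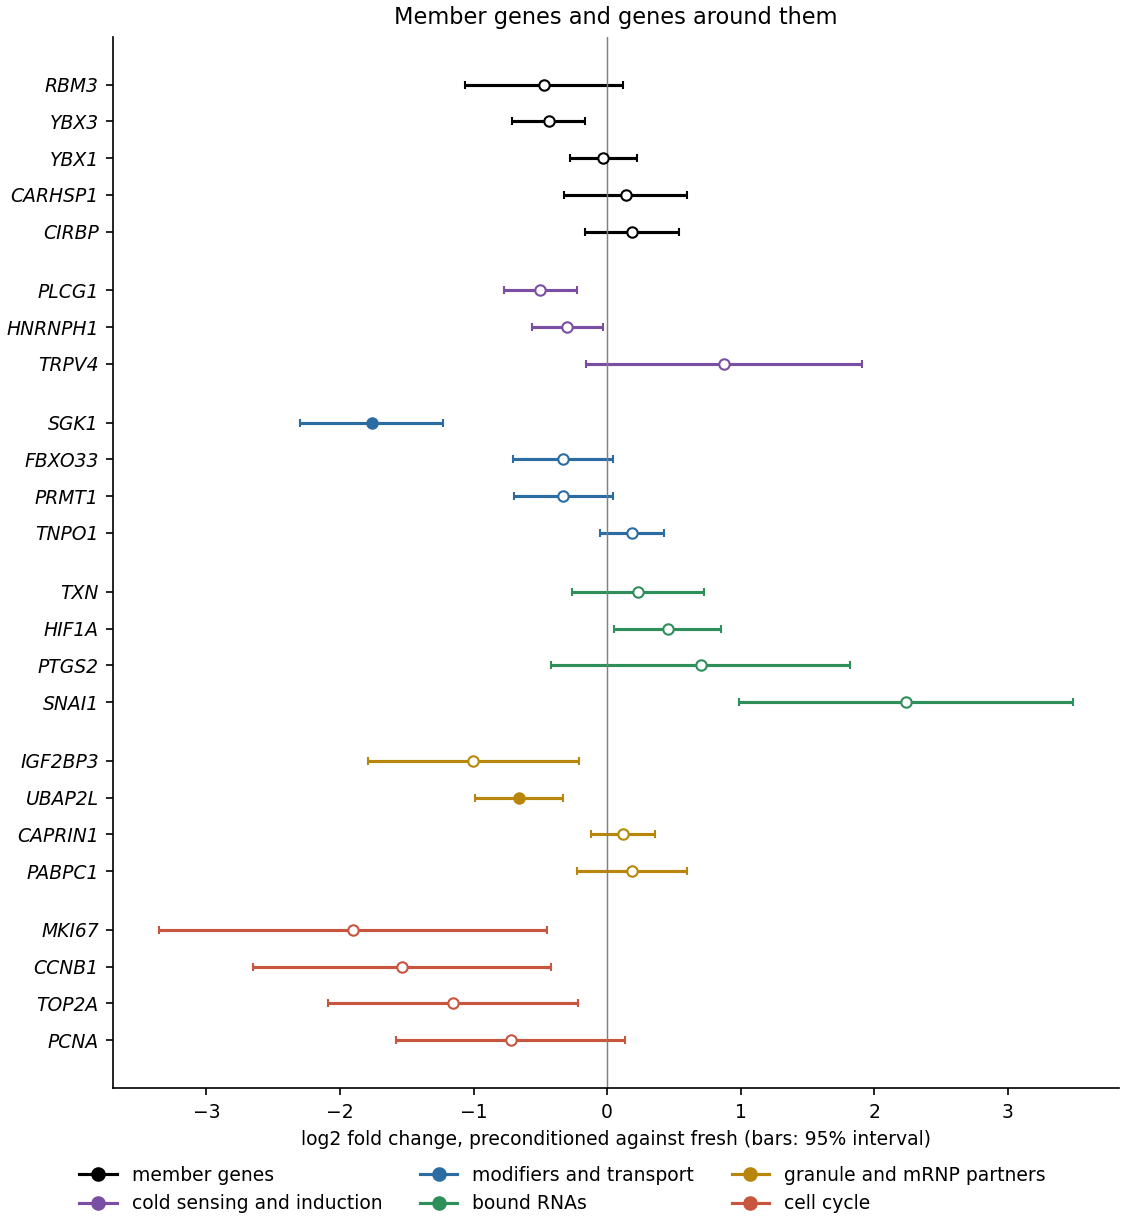
Log2 fold change, preconditioned against fresh, with 95% intervals not adjusted for the number of genes, for the 5 genes (black), the genes named from 4 of the lists around them and 4 cell cycle genes; filled symbols have an adjusted p of at most 0.05. SGK1 at −1.76 and UBAP2L at −0.66 are filled, and none of the black symbols is.

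The summed level of cell cycle genes also had separate ranges in the groups. The 10 listed genes summed to 621 to 858 CPM in the fresh libraries, 542 CPM in preconditioned replicate 1, 189 CPM in replicate 2 and 212 CPM in replicate 3. All 10 had a negative log2 fold change, 7 were lower without overlap of the groups (18.8% of all tested genes were), and 0 passed the cutoffs by edgeR (7 at an unadjusted p under 0.05, beside 30.6% of all tested genes), with adjusted p values from 0.086 to 0.22. With DESeq2, 7 of the 10 passed both cutoffs, beside 7.64% of all genes, and without preconditioned replicate 1 all 10 did by edgeR, beside 9.99%. MKI67, the gene of Ki67, had 25.2 to 51.2 CPM in fresh libraries and 4.51 to 19.6 CPM in preconditioned ones (log2 fold change −1.90). TOP2A, CCNB1 and PCNA had log2 fold changes of −1.15, −1.54 and −0.72. Without preconditioned replicate 1, MKI67 was at −2.92 and PCNA at −1.31. The cell cycle sum and RBM3 were both lowest in preconditioned replicates 2 and 3, but their order differed. Replicate 2 had the lowest sum (189 CPM), and replicate 3 had the lowest RBM3 (140.0 CPM, against 209 CPM in replicate 2). Fresh replicate 3 had the lowest sum of the fresh libraries (621 CPM) and the highest RBM3 of all (325 CPM). YBX3 in preconditioned replicate 1 (223 CPM) lay between replicates 2 and 3 (196 and 237 CPM). The part of cell cycle activity, or of the stromal markers, in the levels of RBM3 and YBX3 was not tested.

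**Figure D5:**
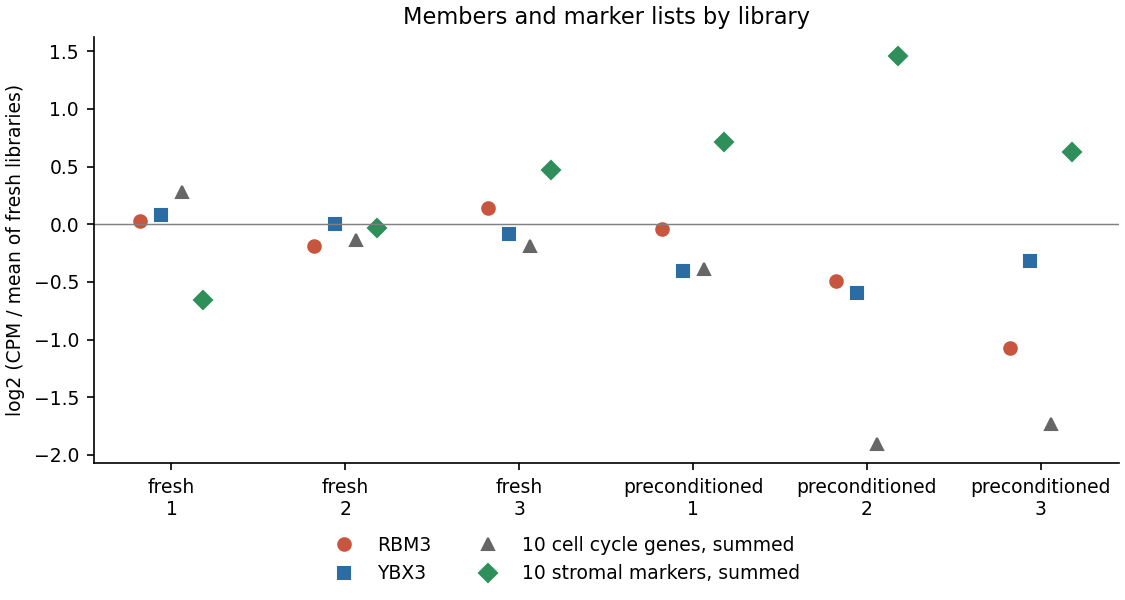
Level of RBM3, YBX3, 10 summed cell cycle genes and 10 summed stromal markers in each library, as log2 of the CPM over the mean of the 3 fresh libraries. Among the preconditioned libraries, RBM3 and the cell cycle sum lie nearest to the fresh level in replicate 1 (287 and 542 CPM), YBX3 is below 0 in all 3 preconditioned libraries, and the stromal sum is above 0 in them.

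For each of the 5 genes, the genes with the most similar log2 CPM over the 6 libraries were sought among 9025 others with a mean of at least 10 CPM. YBX3 was nearest to PLCG1 (Pearson's r = 0.998 over 6 libraries), SMYD3, a lysine methyltransferase (0.996), and PKIG, an inhibitor of protein kinase A (0.994). RBM3 was nearest to MSRB1, a methionine sulfoxide reductase (0.994), the uncharacterized LOC127488699 (0.993) and MRPS36, a mitochondrial protein (0.992). CARHSP1 was nearest to TSR3 (0.995), PSMB4 (0.987) and BUD31 (0.984), CIRBP to NSUN4 (0.981), SNU13 (0.963) and VPS72 (0.962), and YBX1 to MARCHF8 (0.980), PHLPP1 (0.966) and FYCO1 (0.959). With 6 libraries in 2 groups, such values follow the shared groups and scaling of the libraries, and they are given as a description.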

How the data were processed

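RNA-seq had been performed on 6 libraries of rabbit LSCs, 3 fresh and 3 preconditioned. The authors aligned the reads with hisat2, obtained counts per gene with htseq-count, and deposited these raw counts together with FPKM values. The genome build, annotation and strand setting are not given in the sources used here. Groups and replicate numbers came from the sample titles. The 5 genes and all gene lists were chosen with earlier results of these data known.

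Counts were filtered with filterByExpr, scaled by TMM and tested with the robust quasi-likelihood test of edgeR 4.0.16 in R 4.3.3, with condition as the only factor. Standard errors were derived from the F statistic. Where nothing says that libraries of a group came from separate animals, the p values measure the spread between these libraries only. Libraries of 1 group differed by more than sampling noise (chi-square per degree of freedom 48.1 to 147). Ratios of counts within libraries used a pseudocount of 0.5. The depth of 31952352 to 34327534 counts gave the 5 genes 617 counts or more in each library. Counting error was 2.95% and 3.41% of the mean for CIRBP and CARHSP1 in the fresh group, most of their spread of 3.91% and 4.44%, and at most 1.22% for RBM3, YBX1 and YBX3.

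Genes named from a list were those called, the 2 with the largest absolute log2 fold change and the 2 with the highest mean CPM. SP1, CREB1, NTRK2, STRAP, PTPRC and the epithelial genes TP63, EPCAM, CDH1 and KRT15 were named after their values were seen. The same holds for the stromal genes below 0, genes stated as near 0 and genes below the filter on low counts. The edgeR fit with and without the replicate block, the DESeq2 test and limma on scaled counts were tested on simulated counts. The other settings and the permutation test were not. Alternatives were DESeq2 1.42.0 and its size factors, library size alone, limma 3.58.1 on log2(FPKM + 1) and log2(FPKM + 0.1), other filters, the replicate number as a block, and leaving out each library. The DESeq2 test kept all genes with counts, and adjusted p values that it left undefined stayed so. Some genes are not reported here.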

Additional observations from a re-analysis of the deposited data

How the results depend on the processing

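None of the 5 genes passed both cutoffs under any alternative run. At an adjusted p of at most 0.05 alone, a count added after the data were seen, 0 genes became 1 (YBX3) with library size alone, DESeq2 and both limma fits, and 0 to 2 when each library was left out. YBX3 then had a log2 fold change of −0.60 with library size alone, −0.44 with DESeq2, and −0.61 with limma on log2(FPKM + 1) and on log2(FPKM + 0.1), and −0.50 to −0.36 without single libraries. RBM3 ranged from −0.76 to −0.25, CARHSP1 from −0.085 (without preconditioned replicate 1) to 0.30 and YBX1 from −0.079 to 0.016 (without fresh replicate 2) without single libraries. CARHSP1 turned to −0.028 with library size alone and to −0.054 and −0.061 with limma at pseudocounts of 1 and 0.1. CAPRIN1 turned to −0.048 with library size alone and with limma at a pseudocount of 1 and to −0.049 at 0.1, and KRT5 ranged from −0.25 to 0.11 without single libraries (0.039 without fresh replicate 1).

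The 344 genes that passed both cutoffs became 565 with library size alone (142 higher, 423 lower, against 163 and 181), 1202 with DESeq2, 590 with limma on log2(FPKM + 0.1), 763 by adjusted p alone, and 14 (without fresh replicate 2) to 1546 (without preconditioned replicate 1) when each library was left out. With limma on log2(FPKM + 1), 77 were higher and 206 lower. In the 5 lists, the 1 called gene became 3 with DESeq2, 2 with both limma fits, with no filter and by adjusted p alone, and 0 to 3 without single libraries. The cause was not tested. With the replicate number as a block, 30 genes in all and 0 genes of these 5 lists passed, the log2 fold changes of RBM3 and YBX3 were −0.52 and −0.44, and the ratios differed by −0.70 and −0.41. Libraries of the same number did not deviate together (correlations from −0.11 to −0.07), and none correlated best with its own number.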
